A study of Mus musculus with 6 samples.

Results

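Il3ra, Trim30d, Cd59b, Tchh and Vinac1 are genes known for immune, complement, hair or cell adhesion functions that had more reads in Mphosph8 mutant brains than in control brains. These 5 genes, of 54532 gene identifiers counted and 16731 tested, were chosen by their read counts in these same libraries, mutant against control, and for functions best known outside the nervous system, so their own values are given as a description, with no test. The control brains were Mphosph8fl/+ with the Nestin-Cre transgene and the mutant brains were Mphosph8fl/fl with the same transgene (Mphosph8∆n), all C57BL/6J mice at postnatal day 14. Each group held 3 whole brains from 3 mice, with 1 polyA RNA library per brain and 12956880 to 15223424 counts per library. The labels give the controls 1 floxed allele, whereas the study's text describes them by the transgene alone. Nestin-Cre is a transgene that recombines floxed DNA mainly in the neural lineage, and microglia, vessels and blood come from other lineages. In which cells Mphosph8 was lost was not measured in these libraries.

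Mphosph8 encodes a chromodomain protein that reads histone H3 lysine 9 methylation and belongs to HUSH, a complex that silences transposons and long intronless DNA. Il3ra is the ligand-binding chain of the interleukin 3 receptor of blood cells, and Trim30d belongs to an interferon-inducible family of antiviral RING proteins. Cd59b encodes a membrane-anchored inhibitor of the complement membrane attack complex, known mainly from testis, whereas its paralog Cd59a is expressed widely. Tchh encodes trichohyalin, a structural protein of the hair follicle inner root sheath, and Vinac1 belongs to the vinculin and alpha-catenin family of adhesion proteins.

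Levels are given in CPM, the counts scaled to library size with TMM factors (trimmed mean of M-values). The targeted gene, Mphosph8, ranged from 48.6 to 70.7 CPM over the controls and from 26.5 to 33.1 CPM over the mutants, without overlap. Its log2 fold change, mutant over control, was -1.02 ± 0.12 (SE; edgeR quasi-likelihood test, adjusted p = 0.000157). Control replicate 3 stood apart from the other 5 libraries, with 3641 counts of Y-linked genes against 0 to 1 and with 27 counts of Xist against at least 11130. These are the counts of a male brain beside 5 female ones, so sex was mixed in the controls and not in the mutants. Without control replicate 3 edgeR called 47 genes in place of 60, and the main values below are also given without it.

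The start sites of the 5 genes differed in CpG content. RefSeq promoter windows of GRCm38.p6 run from 250 bases before to 50 bases after a start, and all 5 genes had one. The windows of Il3ra and of Tchh are shown because they lie far apart in CpG content, with each CpG in capitals. The Il3ra window is chr14:14346245-14346544 on the plus strand, and the Tchh window is chr3:93442080-93442379 on the plus strand.
Il3ra: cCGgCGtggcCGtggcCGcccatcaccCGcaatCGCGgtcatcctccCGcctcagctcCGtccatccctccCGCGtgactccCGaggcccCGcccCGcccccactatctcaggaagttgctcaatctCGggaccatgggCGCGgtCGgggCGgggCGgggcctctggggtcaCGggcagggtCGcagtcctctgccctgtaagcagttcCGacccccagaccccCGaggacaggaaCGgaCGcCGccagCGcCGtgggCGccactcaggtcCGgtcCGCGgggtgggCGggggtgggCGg
Tchh: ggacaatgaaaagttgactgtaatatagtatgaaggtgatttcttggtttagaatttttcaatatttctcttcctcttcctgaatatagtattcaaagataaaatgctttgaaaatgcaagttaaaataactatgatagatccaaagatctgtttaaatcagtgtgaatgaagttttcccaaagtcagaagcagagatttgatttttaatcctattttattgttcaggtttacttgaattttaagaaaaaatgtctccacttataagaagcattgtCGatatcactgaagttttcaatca
The Il3ra window held 35 CpGs, more than 93.0% of 32851 promoter windows, and that of Vinac1 held 42, more than 97.0%. Those of Trim30d, Cd59b and Tchh held 1 each, more than 5.43% of windows, and the median window held 7. RefSeq places the 5′ end of Vinac1 at position 129065909 of chromosome 2, beside the divergent start of Ttl at 129065947, while the 5′ end of the GENCODE model is at 129048172. The Cd59b window is centred on a start 1285 bases inside the RefSeq gene and 1217 bases inside the GENCODE gene, and that of Il3ra on a start 583 and 220 bases inside.

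The windows of Trim30d and of Cd59b are shown beside those of their closest paralogs, because the paralogs are the comparison for these genes. Capitals mark the letters TATAAA, the CAAT box (CCAAT), the interferon-stimulated response element (GAAA and again GAAA, with any 2 bases between) and the interferon-gamma-activated site (TTC and then GAA, with any 3 bases between). Each was searched on both strands. The windows are chr7:104507800-104508099 on the minus strand for Trim30d, chr7:104465144-104465443 on the minus strand for the first of the Trim30a starts, chr2:104070816-104071115 on the plus strand for Cd59b and chr2:104095551-104095850 on the plus strand for Cd59a.
Trim30d: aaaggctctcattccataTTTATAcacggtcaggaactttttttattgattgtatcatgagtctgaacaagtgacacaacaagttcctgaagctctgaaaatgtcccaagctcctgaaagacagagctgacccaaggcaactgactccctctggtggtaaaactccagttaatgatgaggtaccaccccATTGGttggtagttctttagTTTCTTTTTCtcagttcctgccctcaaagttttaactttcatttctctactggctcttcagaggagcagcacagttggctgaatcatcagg
Trim30a: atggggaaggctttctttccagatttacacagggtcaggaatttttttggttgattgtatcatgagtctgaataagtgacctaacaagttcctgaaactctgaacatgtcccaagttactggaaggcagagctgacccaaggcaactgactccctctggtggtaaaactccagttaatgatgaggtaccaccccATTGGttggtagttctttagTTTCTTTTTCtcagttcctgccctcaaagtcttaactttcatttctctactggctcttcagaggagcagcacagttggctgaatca
Cd59b: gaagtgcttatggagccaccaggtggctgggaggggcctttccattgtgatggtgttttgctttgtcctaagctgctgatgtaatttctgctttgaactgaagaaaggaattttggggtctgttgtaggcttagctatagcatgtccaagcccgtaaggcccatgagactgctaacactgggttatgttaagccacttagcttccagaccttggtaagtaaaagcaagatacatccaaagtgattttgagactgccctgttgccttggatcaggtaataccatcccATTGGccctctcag
Cd59a: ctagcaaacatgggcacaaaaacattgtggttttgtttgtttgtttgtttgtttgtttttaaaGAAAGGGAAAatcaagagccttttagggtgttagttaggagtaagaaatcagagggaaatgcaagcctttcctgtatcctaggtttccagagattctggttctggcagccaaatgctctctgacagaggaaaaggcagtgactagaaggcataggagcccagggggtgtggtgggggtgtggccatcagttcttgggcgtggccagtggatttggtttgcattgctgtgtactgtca
The Trim30d and Trim30a windows were identical at 276 of 295 aligned bases (93.6%). Both held the response element, at base -41 and base -36 from the start, and a CCAAT. Of these windows only that of Trim30d held TATAAA, on the opposite strand and 232 bases before the start, away from the usual place of a TATA box. Cd59a held the response element at base -187, and Cd59b held a CCAAT alone. The response element was in 3.44% of all windows, the CAAT box in 37.4%, TATAAA in 13.6% and the interferon-gamma-activated site in 8.30%. Of the 11 listed Trim paralogs with a window, 6 held the response element, and Trim30d was the 1 of the 5 chosen genes that did.

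The immune receptor gene Il3ra (ENSMUSG00000068758) lies on the plus strand of chromosome 14 at 14346275 to 14356011, with 12 exons in its longest transcript. It was counted 32, 45 and 39 times in control replicates 1 to 3 and 66, 85 and 85 times in mutant replicates 1 to 3. These are 2.13, 3.30 and 2.63 CPM in controls and 5.28, 6.34 and 6.18 CPM in mutants. Every mutant library was above every control library, and the mutant spread was as narrow as the control spread (2.69 ± 0.586 against 5.93 ± 0.575 CPM; mean ± SD, n = 3). The log2 fold change was 1.15 ± 0.20 (SE), and the ratio of summed counts was 2.23, with a 95% exact counting interval of 1.78 to 2.81 that covers counting error only. An antisense gene, Gm48860, overlaps 46 exonic bases and had 0, 3 and 0 counts in controls and 3, 6 and 6 in mutants.

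The antiviral gene Trim30d (ENSMUSG00000057596) lies on the minus strand of chromosome 7 at 104470014 to 104507849. Its counts were 43, 27 and 40 in controls and 57, 95 and 79 in mutants. On the CPM scale the controls were at 2.86, 1.98 and 2.70 and the mutants at 4.56, 7.09 and 5.74. The groups did not overlap, but mutant replicate 1 lay well below the other two mutants. The means were 2.51 ± 0.470 and 5.80 ± 1.27 CPM (SD, n = 3), for a log2 fold change of 1.20 ± 0.22 and a ratio of summed counts of 2.30 (1.83 to 2.92). Of its words of 50 bases, 7.49% occurred in another gene, mostly Trim30a (6.39%).

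The complement inhibitor Cd59b (ENSMUSG00000068686) lies on the plus strand of chromosome 2 at 104069849 to 104091187. It had 8, 8 and 5 counts in controls and 22, 21 and 33 in mutants, or 0.532, 0.586 and 0.337 CPM against 1.76, 1.57 and 2.40 CPM. Control replicate 3 was the lowest and mutant replicate 3 the highest, and no values overlapped. Its log2 fold change of 1.97 ± 0.36 was the largest of the 5, on few reads, and the ratio of summed counts was 3.97 (2.42 to 6.78). Of all its words, 14.1% were shared with other genes, and 8.74% of all its words were shared with Efr3a.

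Of the barrier genes, Tchh (ENSMUSG00000052415) lies on the plus strand of chromosome 3 at 93442330 to 93449077, in 2 exons. A single block of 5685 bases made up 97.6% of its exonic length of 5823 bases, longer than the longest block of 94.9% of tested coding genes. That share of coding genes was 73.8% for the longest block of Vinac1, 63.2% for Trim30d, 9.76% for Il3ra and 5.99% for Cd59b. The counts of Tchh were 41, 48 and 37 in controls and 80, 84 and 79 in mutants. These are 2.73, 3.52 and 2.50 CPM and 6.40, 6.27 and 5.74 CPM. The 3 mutants were close together and all above the controls. The means were 2.91 ± 0.534 and 6.14 ± 0.346 CPM (SD, n = 3), the log2 fold change 1.08 ± 0.19 and the ratio of summed counts 2.12 (1.70 to 2.65). None of its words was shared with another gene.

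Vinac1 (ENSMUSG00000079051) lies on the minus strand of chromosome 2 at 129025073 to 129048172, with 7 exons and a model of 4242 bases that holds coding sequence alone. It had 6, 7 and 5 counts in controls and 14, 22 and 27 in mutants. These are 0.399, 0.513 and 0.337 CPM and 1.12, 1.64 and 1.96 CPM, again without overlap. The log2 fold change was 1.91 ± 0.38, and the ratio of summed counts was 3.84 (2.25 to 6.89), the widest interval of the 5. Reads in its untranslated sequence would not be in these counts.

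All 5 genes passed the rule for a call (adjusted p under 0.05 and more than a 2-fold change), as the choice fixed, against 0.359% of tested genes called in edgeR, 0.353% called higher and 0.00598% called lower. DESeq2 called 0.272% of its tested genes and limma-voom 0.347%, and DESeq2 did not call Vinac1. Leaving out 1 library at a time left 2 to 5 of the 5 genes called. Across all genes, 6.23% had every mutant library above every control library, and the median log2 fold change was -0.01. Among the 59 genes called higher, the 5 ranked 15 (Cd59b), 17 (Vinac1), 44 (Trim30d), 47 (Il3ra) and 52 (Tchh) by log2 fold change. Without control replicate 3 the log2 fold changes were 1.14 for Il3ra, 1.26 for Trim30d, 1.76 for Cd59b, 0.98 for Tchh and 1.78 for Vinac1. In that fit Il3ra and Trim30d were still called, and Cd59b, Tchh and Vinac1 were not. All these fits reuse libraries by which the genes were chosen, so their calls are no test of the genes.

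**Figure D1:**
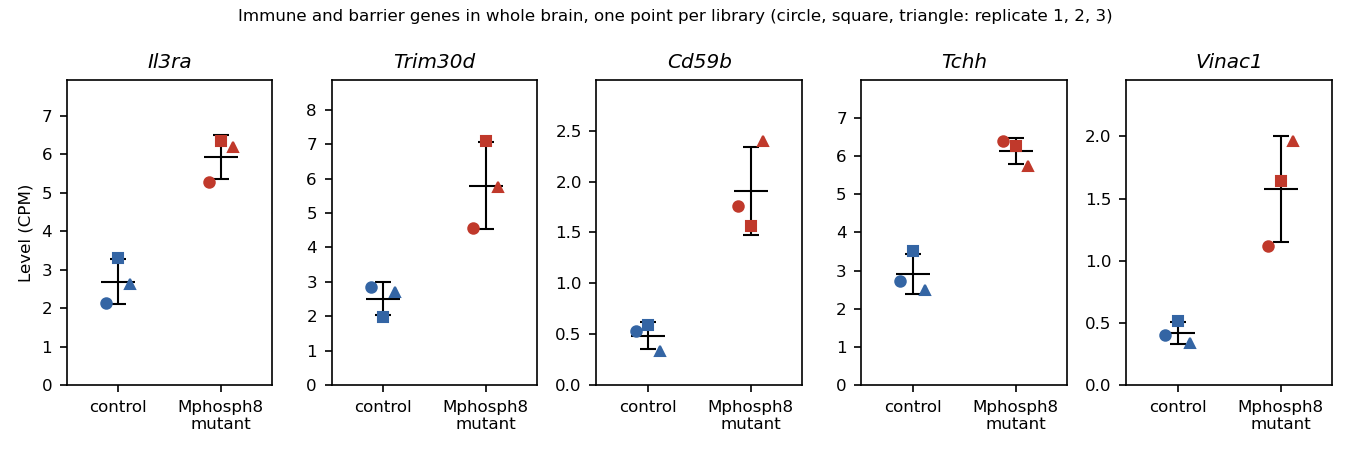
CPM of Il3ra, Trim30d, Cd59b, Tchh and Vinac1 in each of the 3 control and 3 mutant libraries, with circle, square and triangle for replicates 1, 2 and 3, horizontal lines for group means and error bars for the SD. Within each gene every mutant library lies above every control library, from 2.13 to 3.30 against 5.28 to 6.34 CPM for Il3ra, for example.

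Per length, the genes stayed among the lower part of the brain transcriptome. In controls, the mean levels per kilobase of exonic sequence were 0.905 CPM per kb for Il3ra, 0.668 for Trim30d, 0.50 for Tchh, 0.373 for Cd59b and 0.0981 for Vinac1. Neighbours in this order overlapped in range, except Vinac1, whose highest control (0.121) was below the lowest control of Cd59b (0.260). In mutants the order of mean levels was Il3ra (2.00 CPM per kb), Trim30d (1.54), Cd59b (1.47), Tchh (1.05) and Vinac1 (0.371). Cd59b thus stood above Tchh in the mutants, where its range of 1.21 to 1.85 did not meet that of Tchh at 0.986 to 1.10. Il3ra went from a level above 17.5% of tested genes to one above 30.4%, Trim30d from 13.1% to 25.6%, Cd59b from 6.22% to 24.8%, Tchh from 9.47% to 19.3% and Vinac1 from 0.179% to 5.42%. These are levels of whole brain, in which fewer cells of a type and less RNA per cell cannot be told apart.

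None of the listed relatives that could be tested passed the call rule. Of 48 listed relatives of the 5 genes, 31 were tested and 0 were called by edgeR, DESeq2 or limma-voom. With 0.359% of all tested genes called in edgeR, 0 calls does not set a list of this size apart. In edgeR 2 of the relatives had an unadjusted p under 0.05, both higher in mutants. Without control replicate 3 edgeR also called 0, with a median log2 fold change of 0.09. Over all tested genes 6.51% had such a p, and 4.09% with a higher mutant level. The median log2 fold change of the paralogs was 0.04, against -0.01 over all genes. Of the 31, 7 had every mutant library above every control library, against 6.23% of all tested genes, and 2 (Plaur and Vcl) had every mutant library below. The share of all genes with every mutant library below was not computed. The 17 relatives with too few reads to test summed to 59 counts in controls and 85 in mutants.

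For Il3ra the paralogs are other cytokine receptor chains, and 8 of 9 were tested, with a median log2 fold change of -0.01. Csf2ra, the alpha chain of the GM-CSF receptor and 33.3% identical to Il3ra in protein sequence, averaged 28.4 CPM over the controls and 28.3 CPM over the mutants. Its log2 fold change was -0.01 ± 0.13 (SE; edgeR adjusted p = 0.998), and 0.15 without control replicate 3. At 9.90 CPM per kb it was also far above the control level of Il3ra. Csf2rb2, the beta chain that pairs with the interleukin 3 receptor in mice, had 0.45 ± 0.28 (adjusted p = 0.893; 0.14 to 0.64 when 1 library at a time was left out), and Csf2rb, the beta chain common to several receptors, had 0.04 ± 0.23 (adjusted p = 0.995). Crlf2, a chain of the thymic stromal lymphopoietin receptor, had the smallest adjusted p of the paralogs, 0.283, at a log2 fold change of 0.41 ± 0.13.

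The Trim30d relatives had small positive differences, without a call. All 7 tested had a positive log2 fold change, against 47.6% of all tested genes, with a median of 0.27, or 0.36 without control replicate 3. Of them, 4 (Trim30a, Trim12a, Trim34a and Trim21) had every mutant library above every control library, against 6.23% of all tested genes. The whole list summed to 31.0 to 35.4 CPM in controls and 39.5 to 41.0 CPM in mutants. Trim30a, 82.7% identical to Trim30d over 496 residues, was at 3.26, 3.74 and 4.18 CPM in controls and 4.40, 4.78 and 4.29 CPM in mutants. The lowest mutant lay just above the highest control. Its log2 fold change was 0.27 ± 0.19, with a 95% interval of -0.13 to 0.66 and an adjusted p of 0.908 in edgeR. That interval reached 1.58-fold. Trim30b (79.7% identical) had 6 counts in controls and 12 in mutants, and Trim30c (73.6%) had 8 and 4, too few to test. Trim12a had 0.49 ± 0.19 (adjusted p = 0.552), and Trim25, a ubiquitin ligase of the RIG-I pathway, had 0.14 ± 0.12 (adjusted p = 0.931).

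Cd59a and Cd59b are neighbours with 72.0% identity over 118 residues. Cd59a had 121, 115 and 127 counts in controls and 126, 117 and 113 in mutants, or 8.05, 8.42 and 8.57 CPM against 10.1, 8.73 and 8.22 CPM. The groups overlapped, and the log2 fold change was 0.11 ± 0.14, with a 95% interval of 0.880-fold to 1.32-fold (edgeR adjusted p = 0.962). Per length, Cd59a was at 4.61 CPM per kb in controls and 4.97 in mutants, against 0.373 and 1.47 for Cd59b. Of 16 relatives with the same protein fold, 11 were tested, with a median of -0.01. Lynx1, a modulator of nicotinic receptors, had -0.002 ± 0.09 (adjusted p = 0.998), and Plaur, the urokinase receptor, had -0.51 ± 0.26 (adjusted p = 0.803).

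The 6 listed relatives of Tchh (genes of the fused S100 family of cornified epithelia) had almost no reads. They summed to 0 counts in the controls and 5 in the mutants, 3 of them had no count in any library, and 0 could be tested. Vinac1's 5 relatives were all tested, with a median log2 fold change of 0.08. Vcl, vinculin itself, had -0.17 ± 0.08 (adjusted p = 0.803), Ctnna2, the neuronal alpha-catenin, had 0.08 ± 0.08 (adjusted p = 0.933), and Ctnna3 had 0.47 ± 0.32 (adjusted p = 0.906). Ctnna3 averaged 1.33 CPM over the controls, and its log2 fold change was 0.24 without control replicate 3.

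**Figure D2:**
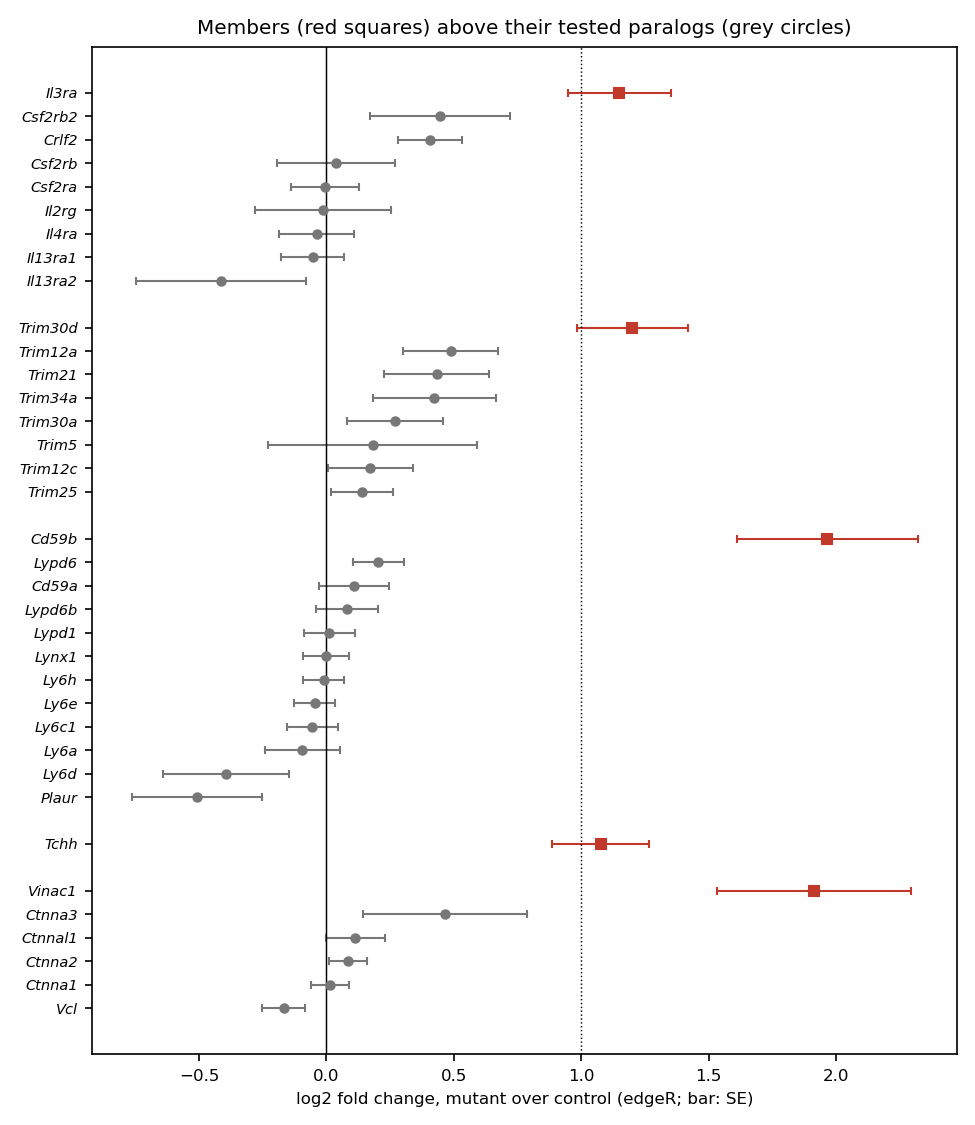
Log2 fold change, mutant over control, of the 5 genes and of their tested paralogs, with bars for the SE; the dotted line marks a 2-fold change. Cd59b and Vinac1 lie near 2, Il3ra, Trim30d and Tchh near 1, and the paralogs between -0.51 and 0.49.

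The genes around the 5 were compared next, to see whether the region as a whole differed. Within 250 kb of them lay 125 genes, of which 28 were tested. Of the 28, 0 were called by edgeR, DESeq2 or limma-voom, against 0.359% of all tested genes in edgeR. In edgeR 2 had an unadjusted p under 0.05, and the median log2 fold change was -0.0005. Without control replicate 3, 0 were called in edgeR and the median was 0.04. All 5 tested neighbours of Trim30d had positive log2 fold changes, with a median of 0.27, or 0.39 without control replicate 3. Of those neighbours, 3 had every mutant library above every control library, against 6.23% of all tested genes. They, and Cd59a beside Cd59b, were also counted among the paralogs. Zc3h6, a zinc finger gene 6510 bases from Vinac1, had the smallest adjusted p, 0.117. It was at 12.8, 15.4 and 13.8 CPM in controls and 20.7, 17.8 and 19.0 CPM in mutants, for a log2 fold change of 0.45 ± 0.11, and 0.44 without control replicate 3. Ttl, the tubulin tyrosine ligase gene whose start RefSeq sets beside that of Vinac1, had -0.03 ± 0.08 (adjusted p = 0.985). Fbxo3, before Cd59b, had -0.09 ± 0.08 (adjusted p = 0.935), Psmd6, the closest tested gene to Il3ra at 225291 bases, had -0.06 ± 0.08 (adjusted p = 0.968), and S100a11, the closest to Tchh, had 0.01 ± 0.21 (adjusted p = 0.998).

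The other 97 neighbours were too low to test and summed to 177 counts in controls and 229 in mutants. Those of Il3ra had 18 and 49 counts, those of Trim30d 53 and 75, those of Cd59b 40 and 29, those of Tchh 1 and 16, and those of Vinac1 65 and 60. Of all 125 neighbours, 54 had no count in any library. Of the 97, 4 had every mutant library above every control library (Olfr31 and Gm48860 near Il3ra, Trim30b and Gm5278), and 2 had every mutant library below (Gm24644 near Cd59b and Gm14026 near Vinac1). Over all tested genes 6.23% had every mutant library above. No share was computed over all genes too low to test, or for every mutant library below. The olfactory receptor gene Olfr31, 14484 bases before Il3ra, had 0, 2 and 2 counts in controls and 5, 7 and 9 in mutants. Gm5278, near Tchh, had 0, 0 and 0 against 2, 1 and 3 counts. Gm24644 had 2, 3 and 2 against 0, 1 and 1 counts, and Gm14026 had 5, 4 and 3 against 1, 2 and 1. These 6 were named after their counts were seen, and counts this low do not show a difference of the region.

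**Figure D3:**
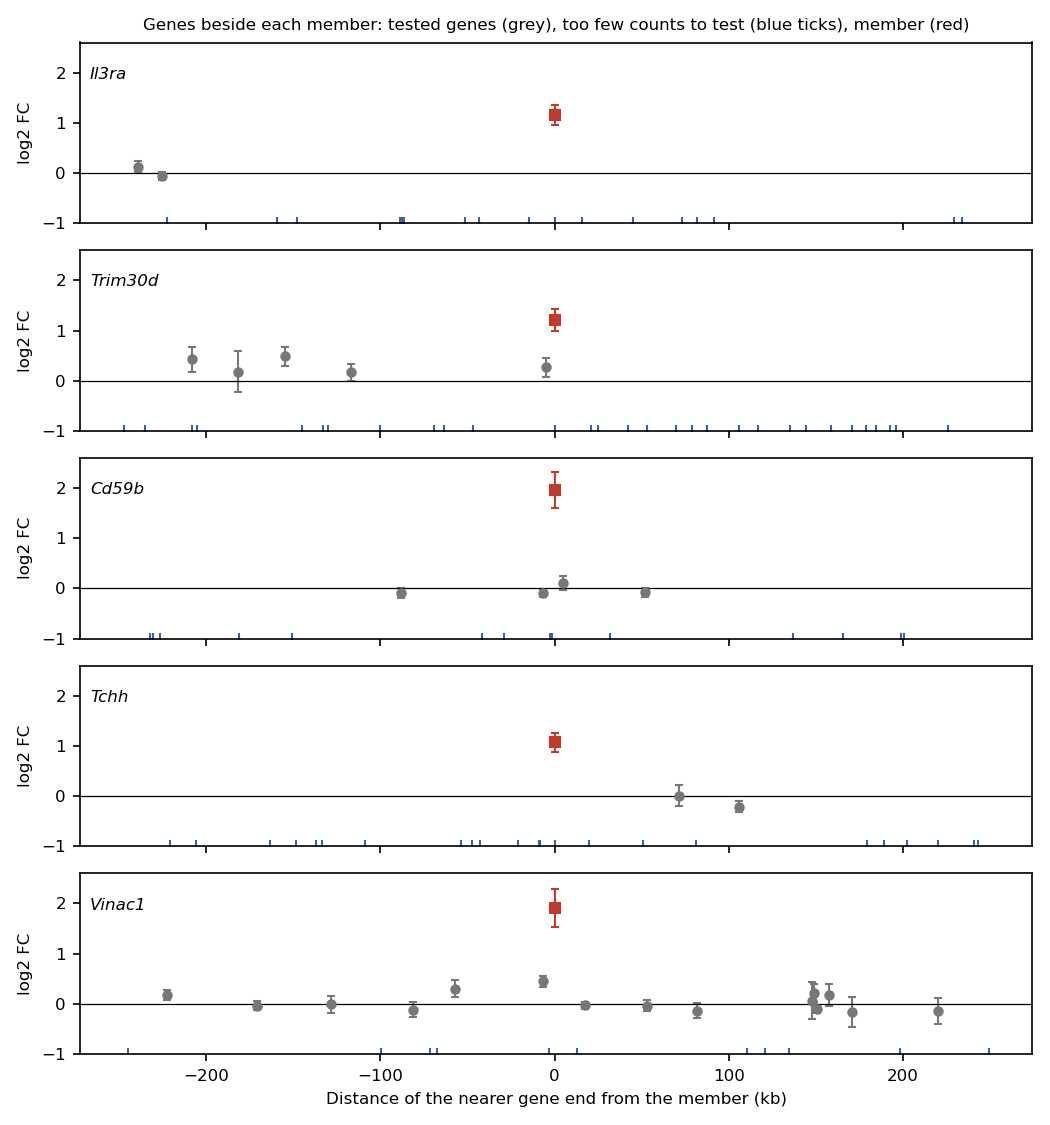
Log2 fold change of tested genes within 250 kb of each of the 5 genes, against distance in kb from that gene, as grey circles with bars for the SE. Red squares show the 5 genes and blue ticks the genes too low to test; the tested neighbours lie between -0.21 and 0.49.

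Pathways picked by the known functions or families of the 5 genes were listed with 93 genes, of which 66 were tested. 0 were called by edgeR, DESeq2 or limma-voom, against 0.359% of all tested genes in edgeR. In edgeR 4 of the 66 had an unadjusted p under 0.05, all higher in mutants, against 4.09% of all tested genes. Without control replicate 3 edgeR called 0 of the pathway genes, with a median log2 fold change of 0.05 against 0.03 with that library. In the interleukin 3 pathway 13 of 16 genes were tested, with a median log2 fold change of -0.03. The ligand genes Il3 and Csf2 had 0 counts in all 6 libraries, which allows up to 3 counts over them. Socs2, an inhibitor of cytokine signalling, had 0.28 ± 0.09 (adjusted p = 0.389).

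Interferon response genes had mostly positive differences, and none was called. Of 25 listed, 21 were tested, and 19 had a positive log2 fold change, against 47.6% of all tested genes. Every mutant library was above every control library for 7 of them, against 6.23% of all tested genes, and the median was 0.24, with and without control replicate 3. Ifit1, an interferon-induced sensor of viral RNA, had 1.02 ± 0.29 (adjusted p = 0.175) and 0.83 without that library, and Usp18, which restrains interferon signalling, had 0.95 ± 0.32 (adjusted p = 0.404). The summed level of the list was 148 to 150.3 CPM in controls and 151 to 184 CPM in mutants.

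Complement genes and their regulators had a median of 0.02 over 14 of 21 tested. Hc, complement component C5, had the largest difference, 0.73 ± 0.40 (adjusted p = 0.838). It lay between 0.43 and 1.36 when 1 library at a time was left out, and at 0.55 without control replicate 3. Of 18 genes of the hair sheath and cornified envelope, 5 were tested, with a median of 0.37 that was 0.01 without control replicate 3. The 13 others summed to 42 counts in controls and 35 in mutants. Lor, the envelope protein loricrin, had 0.41 ± 0.16 (adjusted p = 0.583) and 0.32 without that library. All 13 partners of vinculin and the catenins were tested, with a median of -0.02, and Cdh1, the epithelial cadherin, had -0.32 ± 0.22 (adjusted p = 0.904).

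**Figure D4:**
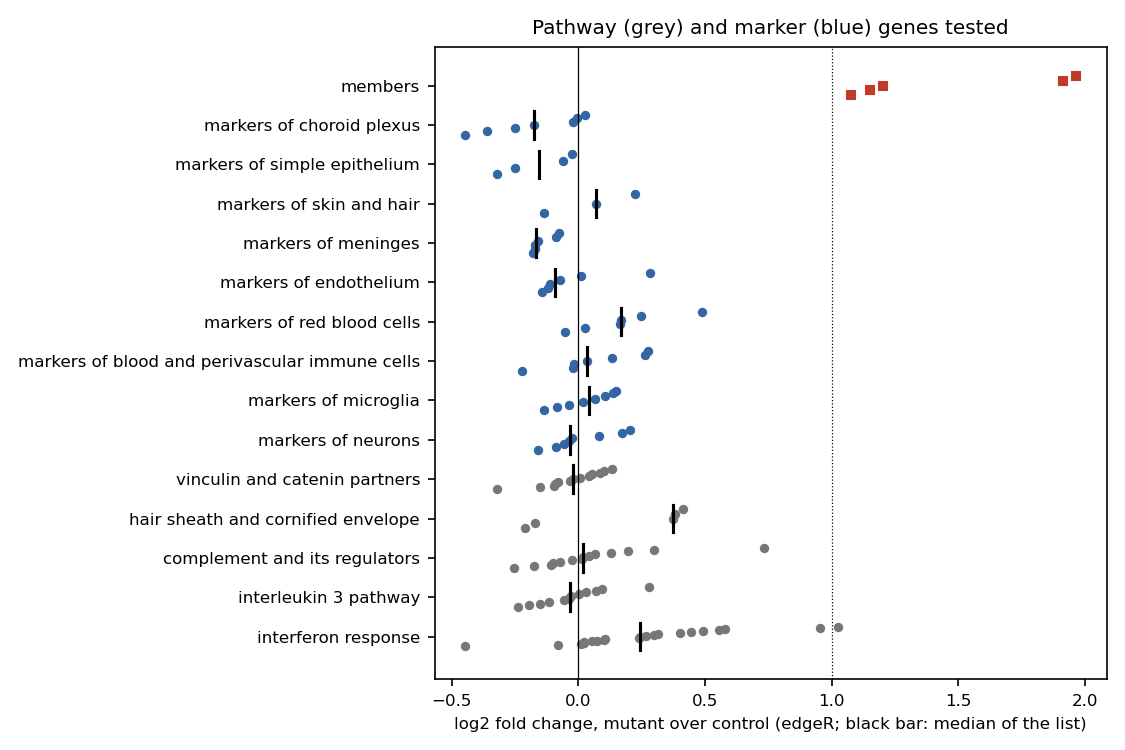
Log2 fold changes, mutant over control, of tested genes in the pathway lists (grey) and marker lists (blue), 1 point per gene, below the 5 genes (red squares); black bars mark list medians and the dotted line a 2-fold change. The medians lie between -0.18 and 0.37.

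Of 75 listed markers, 55 were tested and 0 were called by edgeR, DESeq2 or limma-voom, against 0.359% of all tested genes in edgeR. In edgeR 4 of the markers had an unadjusted p under 0.05, against 6.51% of all tested genes. Without control replicate 3 edgeR also called 0. Markers of skin and hair summed to 14.1 to 18.6 CPM in controls and 15.8 to 19.3 CPM in mutants. Of these 8 markers 3 were tested, 2 with a positive log2 fold change, or 1 without control replicate 3. Their median was 0.07, or -0.19 without that library. Among those with few reads, Krt5 of basal keratinocytes had 0 counts in controls and 1 in mutants, and Krt14 had 4 and 5. Markers of blood and perivascular immune cells summed to 69.0 to 78.5 CPM and 74.6 to 84.7 CPM. Of these 18 markers 7 were tested, with a median log2 fold change of 0.03. In edgeR 1 of the 7 had an unadjusted p under 0.05, higher in mutants, against 4.09% of all tested genes. Every mutant library was above every control library for 1, against 6.23% of all tested genes. Among those with few reads, Cd8a and Ly6g were at 0 in all libraries and Cd3e at 2 counts in each group. Markers of simple epithelium summed to 11.2 to 14.0 CPM and 11.0 to 12.1 CPM, with Cdx2 at 0. Of these 8 markers 4 were tested, 0 with a positive log2 fold change. Their median was -0.16, or -0.05 without control replicate 3.

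Microglia markers ranged from 606 to 664 CPM in controls and 620 to 720 CPM in mutants, and the neuron markers, which define the tissue, from 4240 to 4373 and 4275 to 4465 CPM. Among the marker lists, only that of the choroid plexus had groups that did not overlap, at 1463 to 1756 CPM in controls and 1084 to 1294 CPM in mutants. The median log2 fold change of its 7 genes was -0.18, and -0.17 without control replicate 3. Of the 7, 1 had a positive value, and 3 without that library. Ttr, the main secreted protein of the choroid plexus, had a log2 fold change of -0.45 ± 0.11 (edgeR adjusted p = 0.0764). The part of these cells in the levels of the 5 genes was not tested.

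Across the 6 libraries, the log2 levels of the 5 genes correlated with each other at r = 0.83 to 0.97 in pairs. The mean of their standardised levels was followed most closely, by Pearson correlation over the same libraries, by 4933412O06Rik (0.996), 3222401L13Rik (0.988), Lgals3bp (0.988), Rps4l (0.987) and Ccdc166 (0.986). Their log2 fold changes were 0.79, 3.84, 0.32, 1.36 and 0.89. The points share the split into 2 groups of 3 libraries, so any gene with a difference that is large against its spread comes close to this pattern.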

How the data were processed

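PolyA RNA of whole brains was sequenced. The authors trimmed reads with Trim Galore 0.5.0, removed unwanted sequence with Bowtie2 2.3.4.1, aligned to GRCm38 with STAR and deposited raw counts per gene from featureCounts (Subread 1.6.2); the strand setting is not given in the sources used here. The 54532 identifiers were matched to GENCODE M21 (54495 found). The 5 genes and all lists were chosen with earlier results of these data known. Genes passing filterByExpr (16731) were fitted on genotype with TMM scaling and the edgeR 4.0.16 quasi-likelihood test in R 4.3.3, with Benjamini-Hochberg adjustment over all of them; a call needed an adjusted p under 0.05 and more than a 2-fold change. Alternatives were DESeq2 1.42.0, limma 3.58.1 (voom), other scaling and filters, a replicate block and leaving out each library. Named genes were, for each of the 5, the tested paralog with most counts and that with the largest difference in size, the nearest tested neighbour on each side, the gene with the largest difference in each pathway, Cd59a and Trim30a, the 5 genes most like the 5 in pattern, and any called gene; other genes were named after their values were seen. Counting intervals are exact at 95%. The SE of an edgeR log2 fold change was derived from the test, as its size divided by the square root of the F statistic. The 95% intervals of log2 fold changes are this SE times a t quantile on either side. Likeness used log2(CPM + 0.5). Promoters came from RefSeq (GRCm38.p6). Only the edgeR fit was tested on simulated counts, and the other steps were not. Deviations from the group means correlated at 0.104, -0.0467 and 0.0804 for replicates 1, 2 and 3 across the groups, and no pairing was assumed.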

Additional observations from a re-analysis of the deposited data

How the results depend on the processing

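The number of genes called, 60, was 96 with no filter on low counts, 105 with no fold threshold and 47 to 67 when a library was left out. Paralogs and neighbours called were 0 under every alternative. Pathway genes called were 0, and 1 (Ifit1, 1.02) with no filter, while leaving out a library gave 0 to 0. The 5 genes kept their direction in all 12 alternative fits, which reuse the libraries by which they were chosen and so do not test them. Leaving out a library left 2 to 5 of them past the call rule: 3 without control replicate 1 (Il3ra and Vinac1 lost), 3 without control replicate 2 (Trim30d and Vinac1 lost), 2 without control replicate 3 (Cd59b, Tchh and Vinac1 lost), 5 without mutant replicate 1, 2 without mutant replicate 2 (Il3ra, Trim30d and Vinac1 lost) and 3 without mutant replicate 3 (Cd59b and Vinac1 lost). DESeq2 called 4, all but Vinac1. Fits without a library have fewer samples. The log2 fold changes of the 5 ranged from 1.00 to 1.32 (Il3ra), 1.03 to 1.34 (Trim30d), 1.76 to 2.11 (Cd59b), 0.98 to 1.23 (Tchh) and 1.72 to 2.10 (Vinac1) when a library was left out. Of 240 values for 20 other named genes, 10 changed sign, all near 0: Csf2ra ranged from -0.14 to 0.15 and Lynx1 from -0.086 to 0.048 without a library, with Lynx1 at 0.0001 under a minimum of 1 CPM in 3 libraries, and S100a11 ranged from -0.21 to 0.18, with -0.012 under the replicate block and -0.018 in limma-voom. With the replicate block, 62 genes were called and all 5 genes passed; same-numbered libraries share only a number. With 5 to 48 counts per control library, small differences in these genes were not detectable.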
